A study of Mus musculus with 8 samples.

Results

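The genes described here are 35 enzymes and regulators of cholesterol and fatty acid synthesis in mouse embryonic stem cells. They were named in a list that was chosen with earlier results of these data known. A member counted when it had a value in all 8 libraries and a mean value of at least 1. All 35 listed genes met both conditions, out of 48321 genes in the table, 17488 with values and 13959 that were tested. By role, 18 belong to the sterol branch (7 mevalonate and isoprenoid enzymes and 11 enzymes from squalene to cholesterol), 9 to the fatty acid branch, 5 are regulators of the SREBP transcription factors and 3 act in sterol transport and turnover. Mylip had the lowest mean, 5.95, and no member was lost to the minimum.

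Total RNA of E14 cells, an embryonic stem cell line of strain 129/Ola, was sequenced from 2 engineered lines as 8 libraries, with 4 groups of 2. The line called GSK3α here lacks its own Gsk3a gene and carries a transgenic mutant kinase, GSK3α-L195G, in its place. The GSK3β line lacks its own Gsk3b gene and carries GSK3β-L132G, so each line keeps the other, unmodified paralog. Such a substitution is made so that a bulky analog inhibitor, here 3MB-PP1, acts on the mutant kinase. All 4 groups spent 6 h without serum in N2B27 medium, and the treated groups then had 5 µM 3MB-PP1 for 2 h. The labels name no vehicle for untreated cells, no line without a mutant kinase and no promoter for the transgenes. Each paralog is represented by 1 line, so the paralog, the line and its transgene cannot be told apart. Nothing in the labels says that the libraries of a group came from separate cultures, and the spread that the p-values rest on may be technical.

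Cholesterol is built from acetyl-CoA through mevalonate, isoprenoid pyrophosphates, squalene and lanosterol, and fatty acids from the same acetyl-CoA through malonyl-CoA. Both branches are switched on by SREBP proteins, which SCAP carries from the endoplasmic reticulum to the Golgi for cleavage when sterols are low and which INSIG proteins hold back when sterols are high. SREBP2, the product of Srebf2, acts mainly on sterol genes, and SREBP1, the product of Srebf1, mainly on fatty acid genes. GSK3 is known to phosphorylate the cleaved, nuclear form of SREBP, which marks it for degradation through the ubiquitin ligase subunit FBXW7.

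The promoters of 6 members, chosen by rule, are shown. Cyp51, Insig1, Msmo1 and Lss had the smallest adjusted p-values with the inhibitor in the GSK3α line among members with an entry. Srebf1 and Srebf2, which did not pass with the inhibitor, encode the factors that act on such promoters. Each run holds the 250 bases before the start site, 5′ to 3′ on the strand of the gene, from RefSeq (GRCm38.p6). Capitals mark CCAAT, the letters bound by NF-Y, or CACGTG, an E-box, on either strand, so that CCAAT on the opposite strand reads ATTGG.
Cyp51: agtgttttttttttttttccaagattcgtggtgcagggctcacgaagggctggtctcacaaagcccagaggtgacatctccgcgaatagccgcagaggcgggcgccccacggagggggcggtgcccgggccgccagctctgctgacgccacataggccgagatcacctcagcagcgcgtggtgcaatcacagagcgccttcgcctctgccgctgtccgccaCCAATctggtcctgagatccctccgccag
Insig1: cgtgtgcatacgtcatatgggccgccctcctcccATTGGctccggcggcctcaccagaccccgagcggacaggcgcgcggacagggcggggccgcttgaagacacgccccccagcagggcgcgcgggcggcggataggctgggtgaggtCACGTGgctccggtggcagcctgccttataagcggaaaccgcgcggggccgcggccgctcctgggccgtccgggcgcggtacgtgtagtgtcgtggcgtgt
Msmo1: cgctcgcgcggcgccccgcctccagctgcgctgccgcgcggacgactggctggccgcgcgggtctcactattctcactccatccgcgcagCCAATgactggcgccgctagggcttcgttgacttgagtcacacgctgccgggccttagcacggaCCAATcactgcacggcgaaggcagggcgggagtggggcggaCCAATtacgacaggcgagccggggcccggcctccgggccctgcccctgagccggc
Lss: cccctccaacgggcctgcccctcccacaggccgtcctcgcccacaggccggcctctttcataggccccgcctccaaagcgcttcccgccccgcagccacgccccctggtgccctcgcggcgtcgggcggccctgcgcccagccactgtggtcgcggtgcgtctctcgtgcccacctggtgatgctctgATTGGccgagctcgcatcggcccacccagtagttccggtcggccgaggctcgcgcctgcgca
Srebf1: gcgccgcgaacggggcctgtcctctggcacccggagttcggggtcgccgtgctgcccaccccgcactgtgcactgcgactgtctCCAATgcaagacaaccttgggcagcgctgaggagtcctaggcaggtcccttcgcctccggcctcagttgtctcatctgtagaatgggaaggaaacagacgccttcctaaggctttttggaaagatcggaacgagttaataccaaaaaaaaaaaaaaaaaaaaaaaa
Srebf2: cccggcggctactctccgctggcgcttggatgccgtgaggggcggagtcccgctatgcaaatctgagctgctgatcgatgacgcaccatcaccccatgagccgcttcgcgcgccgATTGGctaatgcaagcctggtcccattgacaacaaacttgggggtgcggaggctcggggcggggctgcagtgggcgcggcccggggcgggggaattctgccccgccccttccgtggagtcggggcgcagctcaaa

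These runs lie at chr5:4104698-4104947 on the minus strand (Cyp51), chr5:28071162-28071411 on the plus strand (Insig1), chr8:64733579-64733828 on the minus strand (Msmo1), chr10:76531355-76531604 on the plus strand (Lss), chr11:60222582-60222831 on the minus strand (Srebf1) and chr15:82147019-82147268 on the plus strand (Srebf2). For Srebf1 the most upstream of 3 start sites was taken. The capitals begin 29 bases before the start site in Cyp51, at 216 (CCAAT) and 101 (CACGTG) in Insig1, at 160, 96 and 55 in Msmo1, at 62 in Lss, at 166 in Srebf1 and at 135 in Srebf2. Windows reaching from 250 bases before to 50 bases from the start site were found for 28 of the 35 members. In them, CCAAT on either strand was present for 14 of 15 sterol branch genes (93.3%), 4 of 5 SREBP regulators and 3 of 6 fatty acid genes, and for 43.6% of the tested genes with a window and 41.1% of all genes in the table of windows. The box GGGCGG, bound by SP1, was present for 14 of 15 sterol branch genes, 3 of 6 fatty acid genes, 69.6% of tested genes and 38.2% of all genes. CACGTG was present for 6 of 28 members (21.4%), 11.8% of tested genes and 8.09% of all genes. A form of the sterol regulatory element to which SREBP binds, TCACNCCAC, was found in Hmgcs1 and in no other member window, against 1.44% of all genes. A longer form of the element that overlaps it was in no member window and in 0.0999% of all genes. These matches describe letters in short windows and show no binding.

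The deposited values are estimated gene counts after scaling by the authors, with the third quartile equal in all libraries, so they compare a gene across libraries but not genes of different length. Taking the smallest value of a library as 1 read, the libraries held an estimated 21.5 to 32.4 M reads assigned to genes. These were 21.5 and 22.7 M untreated and 26.0 and 26.4 M treated in the GSK3α line. In the GSK3β line they were 23.8 and 28.9 M untreated and 31.2 and 32.4 M treated. Treated libraries were thus the deeper ones in both lines, and the part of depth in the results was not tested. Across the members, the log2 values of the 2 libraries of a group differed with an SD of 0.038 to 0.087. Across all tested genes this SD was wider, 0.12 to 0.14. The shares that passed among members and among all tested genes thus rest on unlike spreads. Gsk3a had means of 158 and 77.0 in the untreated GSK3α and GSK3β lines and Gsk3b 56.5 and 245, in the direction of the labels, although the table does not separate a transgene from the gene of the cell. In the treated GSK3α line Gsk3a was at 141 (log2 -0.16 ± 0.034 (SE), limma adjusted p = 0.0345). All 10 pluripotent cell markers were present, with a summed value of 6673 to 6885 over the libraries. The sum hides opposite changes by the tests described below. With 3MB-PP1 in the GSK3β line 3 of the 10 were higher and 3 lower, where 14.9% of all tested genes passed. Between the untreated lines 4 were higher and 4 lower, where 48.2% passed. The part of these markers in the results below was not tested. Of 8 fibroblast markers 4 had values, with sums of 11.3 to 16.1, and Col3a1, Dcn, Lum and Postn had none. Of 8 primitive endoderm markers 7 had values, with sums of at most 12.6. Of 8 trophoblast markers 7 had values, with sums of 42.9 to 74.2, and of 8 neural markers 7, with sums of 153 to 234. In bulk RNA fewer cells of a type and less RNA per cell cannot be told apart.

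The first question was whether the inhibitor changed these genes in the GSK3α line. There 7 of the 35 members rose and none fell, where 0.881% of all tested genes passed, 0.265% higher and 0.616% lower. Since the list was chosen with earlier results of these data known, such shares describe it and are no independent test. The rises were Cyp51, Insig1, Hmgcs1, Msmo1, Lss, Dhcr7 and Hsd17b7, of which 6 are sterol branch enzymes and Insig1 is an SREBP regulator. They were small, between 12.2% and 25.6% of the untreated mean. In the sterol branch 17 of 18 genes had a positive log2 change, with a median of 0.15. Over all tested genes 53.6% had a positive change, with a median of 0.0070. Of the 9 fatty acid genes none passed, and their median was 0.021. The count of 7 was 2 without the second untreated or the second treated GSK3α library and 1 without the first treated one, and it was 11 without either untreated GSK3β library. The neural marker sum was 153 to 160.3 in the untreated and 169 to 170.1 in the treated GSK3α libraries. None of 6 tested neural markers passed there, with a median log2 change of 0.051. Of the 10 pluripotent cell markers 1 was higher, Fgf4 (0.14), and none lower. Their part in these counts was not tested.

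**Figure D1:**
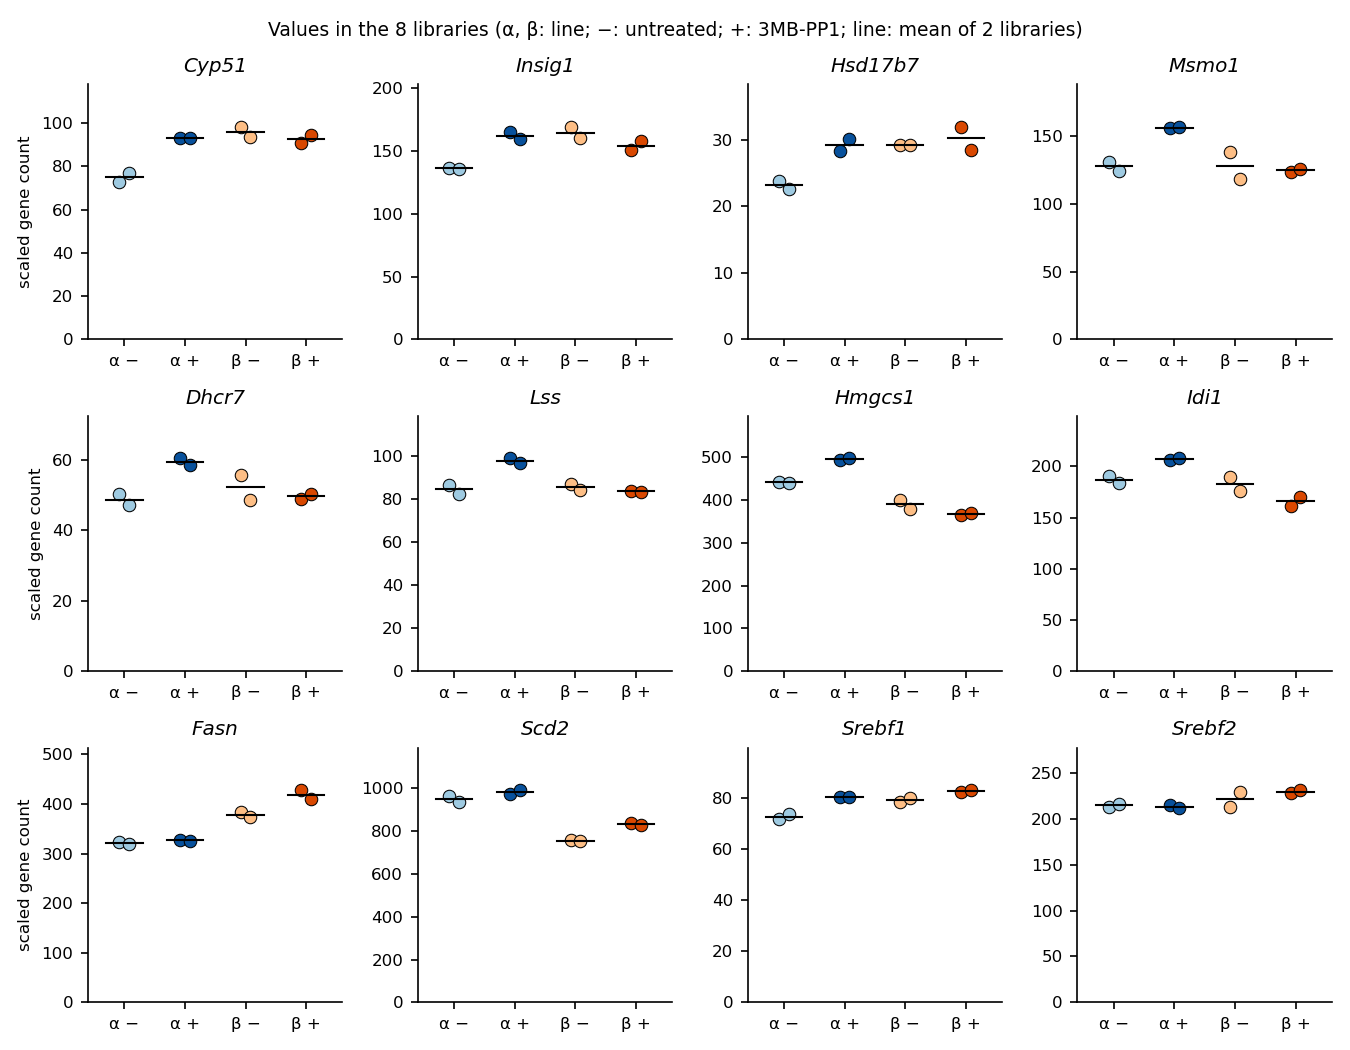
Scaled gene counts of 12 members in each of the 8 libraries, by line (α, β) and treatment (−, untreated; +, 3MB-PP1); points are libraries, bars the mean of 2, and each axis starts at 0. For Msmo1 and Dhcr7 the treated GSK3α libraries are the highest, and for Cyp51 and Insig1 the untreated GSK3α libraries are the lowest.

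Among the enzymes from squalene to cholesterol 5 of 11 rose in the GSK3α line, with a median log2 change of 0.21. Cyp51, the demethylase that removes a methyl group of lanosterol, had values of 72.7 and 77.2 in the untreated and 92.9 and 93.0 in the treated libraries of the GSK3α line, and of 98.2 and 93.6 untreated and 90.7 and 94.3 treated in the GSK3β line. Its untreated GSK3α libraries lay below all 6 others, and the treated ones reached the level of the GSK3β line. The change in the GSK3α line was 24.1% (log2 0.31 ± 0.039 (SE), limma adjusted p = 0.000491). It was the 1 call of the 7 that held when any single library was left out, while for the other 6 the highest limma adjusted p without 1 library was between 0.0737 (Insig1) and 0.258 (Dhcr7). Exons of Cyp51 overlap those of Akap9 on the opposite strand over 166 bases, and Akap9, with log2 -0.072, limma adjusted p = 0.669, did not pass.

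Msmo1, which oxidises the methyl groups at carbon C4 of the sterol ring, had values of 131 and 125 untreated and 156 and 157 treated in the GSK3α line and 138 and 118 untreated and 124 and 126 treated in the GSK3β line. Both treated GSK3α libraries were the highest of the 8. It rose by 22.2% (log2 0.29 ± 0.050 (SE), limma adjusted p = 0.00671), and with robust empirical Bayes its adjusted p in limma was 0.0560.

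Dhcr7, the reductase that makes cholesterol from 7-dehydrocholesterol, was at 50.3 and 47.1 untreated and 60.5 and 58.7 treated in the GSK3α line, against 55.8 and 48.7 untreated and 49.0 and 50.4 treated in the GSK3β line. Its treated GSK3α libraries also stood above all others, 22.4% over the untreated mean (log2 0.29 ± 0.054 (SE), limma adjusted p = 0.0128). Lss, the cyclase that closes squalene epoxide into lanosterol, gave 86.7 and 82.5 untreated and 98.9 and 96.8 treated in the GSK3α line and 87.0 and 84.0 untreated and 83.8 and 83.4 treated in the GSK3β line. Its rise was 15.7% (log2 0.21 ± 0.037 (SE), limma adjusted p = 0.00845). Hsd17b7, a reductase of keto groups on the sterol ring, had 23.8 and 22.5 untreated and 28.2 and 30.1 treated in the GSK3α line and 29.2 and 29.2 untreated and 31.9 and 28.5 treated in the GSK3β line. The untreated GSK3α libraries were the lowest of the 8, and the rise was 25.6% (log2 0.32 ± 0.060 (SE), limma adjusted p = 0.0136).

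The other enzymes of this segment did not pass in the GSK3α line. Tm7sf2, a sterol reductase at low values, had 7.34 and 8.63 untreated and 9.60 and 10.1 treated (log2 0.28 ± 0.11 (SE), limma adjusted p = 0.289), and its pair of libraries did not overlap. Its exons overlap those of Vps51 on the same strand over 532 bases. Vps51 had the higher mean over the 8 libraries, 18.1 against 8.04, and its part in the values of Tm7sf2 was not tested. Fdft1, squalene synthase, had a log2 change of 0.13 (limma adjusted p = 0.0983), Sqle, the epoxidase that follows it, 0.078, the sterol desaturase Sc5d 0.16, the dehydrogenase Nsdhl 0.069 and Ebp, a sterol isomerase, -0.080. Ebp was the only sterol branch gene with a negative change in this line.

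Of the 7 mevalonate and isoprenoid enzymes 1 rose in the GSK3α line, and all 7 had positive changes with a median of 0.094. The rise was in Hmgcs1, the synthase that makes HMG-CoA. Hmgcs1 had values of 444 and 441 untreated and 495 and 497 treated in the GSK3α line, and 400.1 and 379.7 untreated and 365 and 371 treated in the GSK3β line. The treated GSK3α libraries were the highest, the untreated ones followed, and all 4 GSK3β libraries were lower. Its change was 12.2% (log2 0.17 ± 0.030 (SE), limma adjusted p = 0.00916). Mvd, the decarboxylase that forms isopentenyl pyrophosphate, had 36.5 and 36.4 untreated and 41.8 and 42.7 treated, with an adjusted p just above the threshold (log2 0.21 ± 0.050 (SE), limma adjusted p = 0.0557). Idi1, the isomerase of that product, had 190.5 and 184 untreated and 206 and 208 treated (log2 0.15 ± 0.038 (SE), limma adjusted p = 0.0822). Acat2, the kinases Mvk and Pmvk, which phosphorylate mevalonate in turn, and Fdps, which makes farnesyl pyrophosphate, had changes between 0.046 and 0.094 and did not pass.

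Both treated GSK3α libraries showed the sterol branch at a similar level. Relative to the untreated mean of the line, the median over the 18 genes was 0.16 in one treated library and 0.15 in the other, with 17 of 18 genes above that mean in each. The sum over the branch went from 1694 ± 0.27 to 1893 ± 8.1 (SD, n = 2), or 11.7%. Treated and untreated libraries did not overlap and the treated were higher for 16 of 18 sterol branch genes and 24 of 35 members, which 23.0% of tested genes also showed. Insig2 was the only member with both treated libraries lower, a pattern of 19.0% of tested genes. These libraries are the ones the test used, so the counts add no independent evidence. The sterol branch also shifted together between the untreated GSK3β libraries, with sums of 1752 and 1653. There 15 of 18 genes lay above the mean of the pair in the first library and 3 in the second. Same-sign counts within the branch are therefore not independent results.

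In the GSK3β line the same inhibitor gave 4 members higher and 3 lower, where 14.9% of all tested genes passed, 7.49% higher and 7.44% lower. At 7 of 35, the share of members was near that background. The count was 2 without the first treated and 13 without the second untreated GSK3β library, and 11, with 8 higher, when libraries were rescaled by the median of ratios. The trophoblast marker sum was 42.9 to 49.4 in the untreated and 69.8 to 74.2 in the treated GSK3β libraries and the neural one 165 to 175 and 225 to 234. Of 6 tested trophoblast markers Tfap2c rose (0.85) and 5 did not pass. Of 6 tested neural markers Nes and Tubb3 rose (0.51 and 0.52), Neurod1 fell (-0.46) and 3 did not pass, with a median of -0.090. Their part in these counts was not tested. The 4 rises, Fasn, Scd1, Scd2 and Acly, all belong to the fatty acid branch, and the 3 falls were Acat2 and Idi1 of the sterol branch and Insig2. The median log2 change was 0.092 over the 9 fatty acid genes, -0.040 over the 18 sterol branch genes and -0.0057 over all tested genes. The sum over the fatty acid branch went from 2290 ± 10 to 2485 ± 24 (SD, n = 2), or 8.53%, and that over the sterol branch from 1703 ± 70 to 1653 ± 6.7, a change of -2.92% that is smaller than the spread of the untreated pair.

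**Figure D2:**
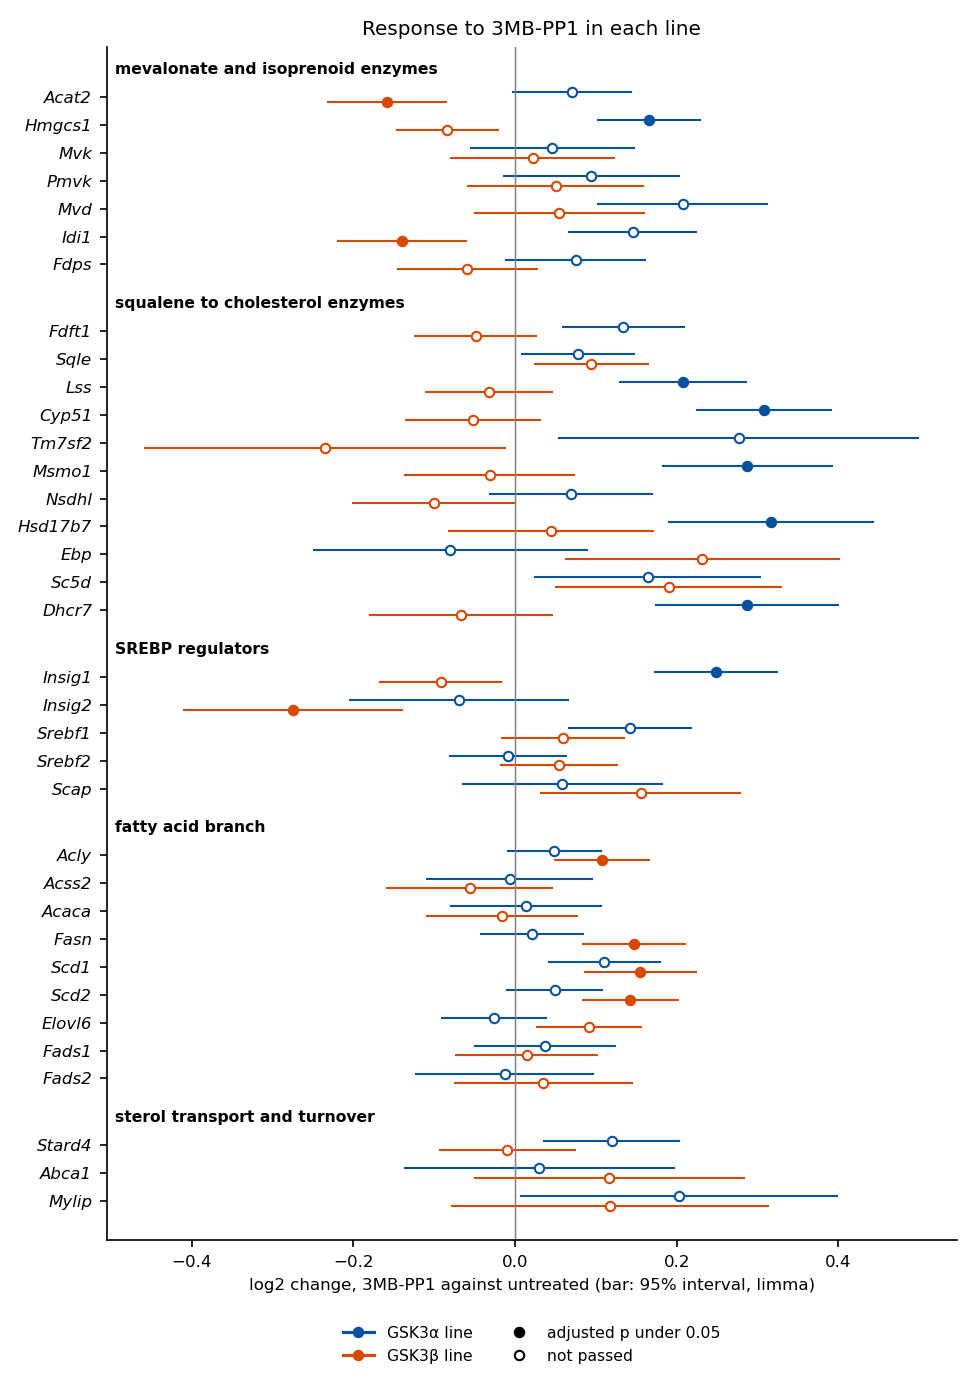
Log2 change with 3MB-PP1 against untreated for each of the 35 members by role, in the GSK3α line (blue) and the GSK3β line (orange); bars are 95% intervals from limma and filled points passed the threshold. In the GSK3α line 7 points are filled, all above 0 and none in the fatty acid branch, while in the GSK3β line the 4 filled points above 0 are Acly, Fasn, Scd1 and Scd2.

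Fasn, the synthase that assembles palmitate, had values of 383 and 373 untreated and 428 and 409 treated in the GSK3β line and 324 and 320.2 untreated and 327 and 326 treated in the GSK3α line. Both treated GSK3β libraries were the highest of the 8, 10.8% over the untreated mean (log2 0.15 ± 0.030 (SE), limma adjusted p = 0.00227). Scd2, a desaturase that makes monounsaturated fatty acids, was at 759 and 753 untreated and 839 and 831 treated in the GSK3β line, below all libraries of the GSK3α line (963 and 939 untreated, 974 and 993 treated). Its rise was 10.4% (log2 0.14 ± 0.028 (SE), limma adjusted p = 0.00151), and with that of Acat2 it was 1 of the 2 calls in this line that held without any single library. For the other 5 the highest limma adjusted p without 1 library was between 0.0893 (Scd1) and 0.238 (Idi1). Scd1, its paralog, had 208 and 217 untreated and 242 and 232 treated in the GSK3β line (log2 0.16 ± 0.033 (SE), limma adjusted p = 0.00287) and 211 and 205 untreated and 224 and 225 treated in the GSK3α line. Acly, which cleaves citrate into the acetyl-CoA of both branches, had 454 and 465 untreated and 495 and 495 treated in the GSK3β line and 406 and 407 untreated and 422 and 419 treated in the GSK3α line. It rose by 7.72% (log2 0.11 ± 0.028 (SE), limma adjusted p = 0.0121).

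The remaining 5 fatty acid genes did not pass in either line. Elovl6, which lengthens palmitate, had treated libraries apart from and above the untreated ones in the GSK3β line (253 and 254 untreated, 267 and 274 treated) with log2 0.092 ± 0.031 (SE), limma adjusted p = 0.0515. Acaca, the carboxylase that makes malonyl-CoA, had log2 changes of 0.013 in the GSK3α line and -0.016 in the GSK3β line. For Acss2, the acetate ligase, they were -0.0067 and -0.056. Of the desaturases of polyunsaturated fatty acids, Fads1 had 0.037 and 0.014 and Fads2 -0.013 and 0.035.

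Both sterol branch genes that fell in the GSK3β line belong to the mevalonate and isoprenoid segment. Acat2, the cytosolic thiolase that starts the pathway, had values of 102 and 99.6 untreated and 90.8 and 89.8 treated in the GSK3β line and 93.3 and 95.3 untreated and 100.3 and 97.8 treated in the GSK3α line. Its treated GSK3β libraries were the lowest of the 8 (log2 -0.16 ± 0.035 (SE), limma adjusted p = 0.00398). Reads of Acat2 may be shared with its near copy Acat3, so its values are uncertain. Idi1 had 189.9 and 176 untreated and 161 and 170.1 treated in the GSK3β line, again the lowest of the 8 (log2 -0.14 ± 0.038 (SE), limma adjusted p = 0.016). Ebp had the largest positive change of the branch, with 24.4 and 23.4 untreated and 30.8 and 25.8 treated in the GSK3β line (log2 0.23 ± 0.080 (SE), limma adjusted p = 0.0602) and 17.3 and 20.6 untreated and 18.2 and 17.5 treated in the GSK3α line. Its difference between the lines was positive and did not pass (log2 0.31 ± 0.11 (SE), limma adjusted p = 0.114). For Sqle and Sc5d the treated pair also lay above the untreated, with 191 and 179.9 against 195 and 201 for Sqle (log2 0.094, limma adjusted p = 0.0633) and 20.6 and 18.9 against 21.6 and 23.8 for Sc5d (log2 0.19, limma adjusted p = 0.0609). None of the 11 enzymes from squalene to cholesterol passed, and their median was -0.032. Over the whole branch the treated pair was apart and above in 4 of 18 genes and apart and below in 7, where 27.3% and 30.0% of tested genes showed these patterns.

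The responses of the lines were then compared directly, as the log2 change in the GSK3β line minus that in the GSK3α line. This difference passed for 10 of 35 members, all lower in the GSK3β line, where 6.53% of all tested genes passed, 3.62% higher and 2.90% lower. They were 9 of the 18 sterol branch genes and Insig1. No fatty acid gene, no gene of sterol transport and no other regulator passed. The median difference was -0.21 over the sterol branch, 0.048 over the fatty acid branch and -0.014 over all tested genes. With libraries rescaled by the median of ratios, 65.6% of all called genes were higher in place of 55.5%. This comparison shares its libraries with the response of each line and is not a further measurement of them.

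**Figure D3:**
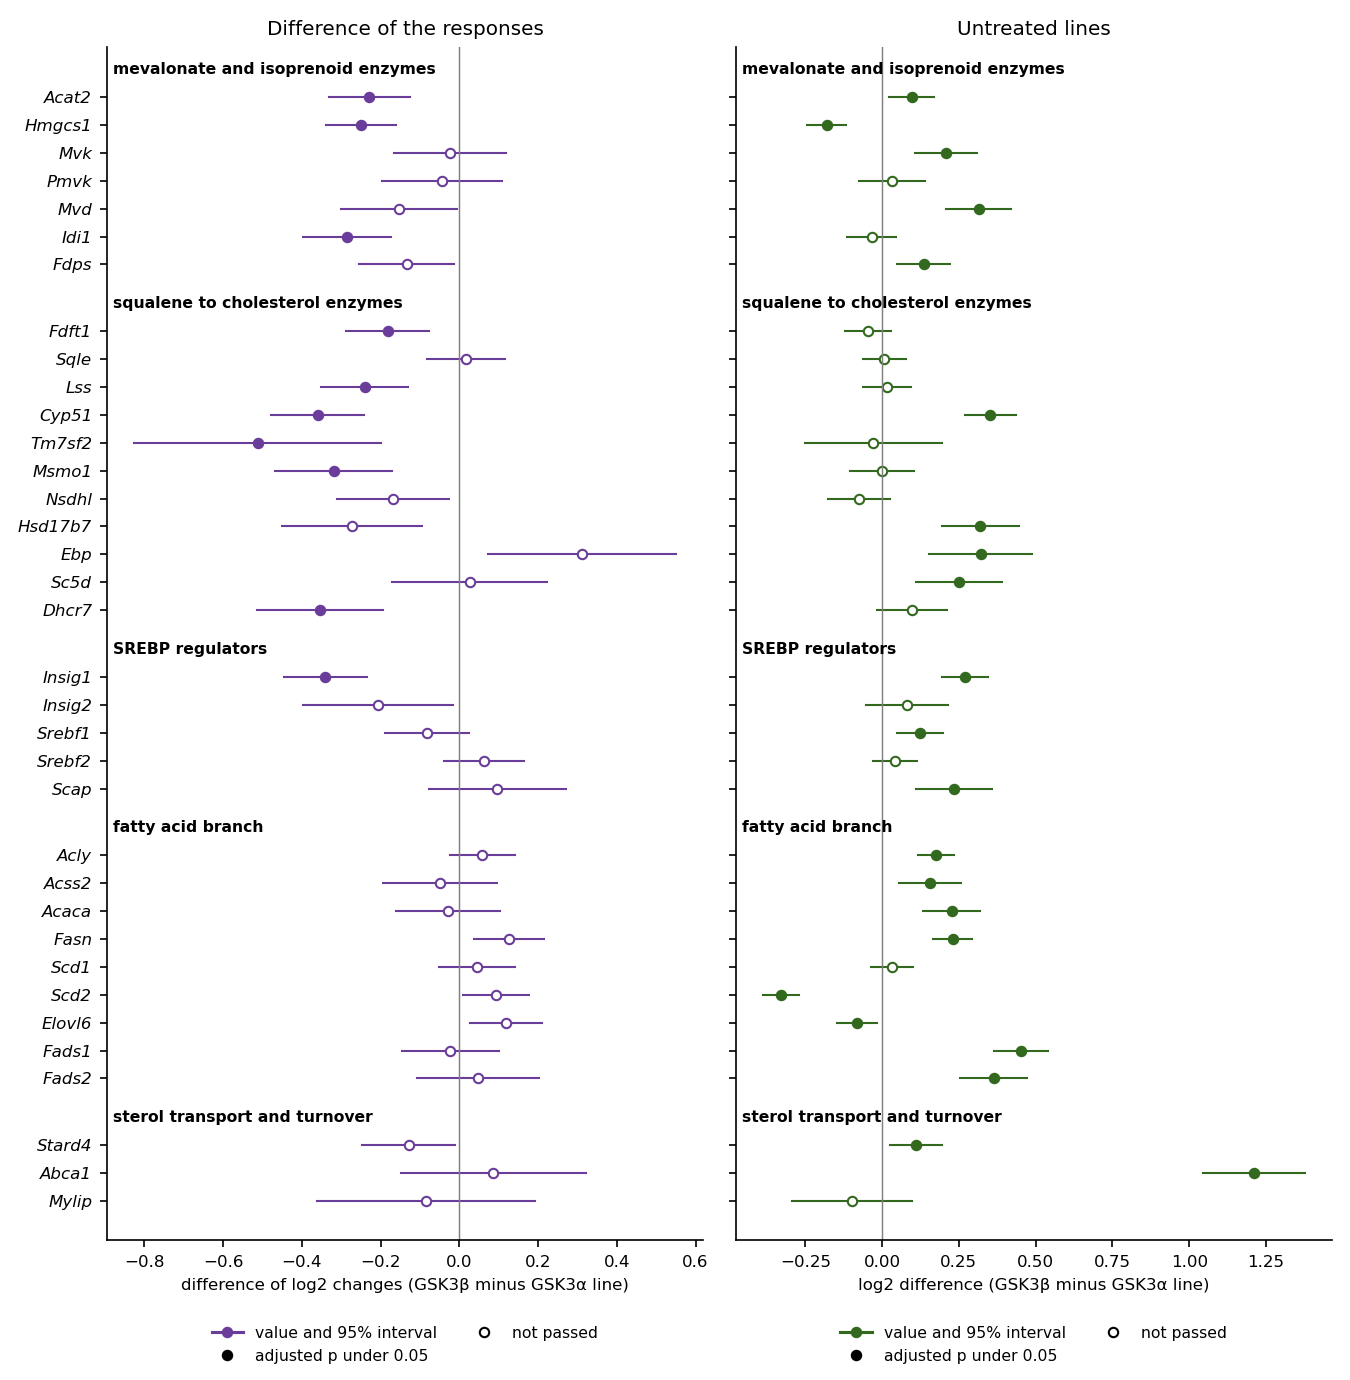
GSK3β line minus GSK3α line for each of the 35 members by role, as the difference of the log2 changes with 3MB-PP1 (left) and as the log2 difference of the untreated lines (right); bars are 95% intervals from limma and filled points passed the threshold. On the left the 10 filled points all lie below 0, and on the right 19 of 22 lie above 0, with Abca1 far from the rest.

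The widest difference on the log2 scale was that of Tm7sf2, whose treated libraries were 9.60 and 10.1 in the GSK3α line and 5.79 and 7.20 in the GSK3β line, from untreated pairs that overlapped (7.34 and 8.63 in the GSK3α and 8.37 and 7.24 in the GSK3β line). Its difference passed narrowly (log2 -0.51 ± 0.15 (SE), limma adjusted p = 0.0474). This call was lost in 5 of 11 alternative fits with all libraries and in most fits without 1 library. Over the latter the log2 difference of Tm7sf2 lay between -0.65 and -0.38. The exon overlap of Tm7sf2 with Vps51 applies here too. Cyp51 gave log2 -0.36 ± 0.056 (SE), limma adjusted p = 0.000516, Dhcr7 log2 -0.35 ± 0.076 (SE), limma adjusted p = 0.00823 and Insig1 log2 -0.34 ± 0.051 (SE), limma adjusted p = 0.000312. In Msmo1 the difference was log2 -0.32 ± 0.071 (SE), limma adjusted p = 0.00984, in Lss log2 -0.24 ± 0.053 (SE), limma adjusted p = 0.00932 and in Hmgcs1 log2 -0.25 ± 0.043 (SE), limma adjusted p = 0.00117. For all of these except Tm7sf2 the GSK3α response itself had passed, while in the GSK3β line none of the 7 did.

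Idi1 and Acat2 reached the list from the other side, with falls in the GSK3β line. Idi1 differed by log2 -0.29 ± 0.053 (SE), limma adjusted p = 0.00269, from changes of 0.15 in the GSK3α and -0.14 in the GSK3β line. Acat2 differed by log2 -0.23 ± 0.049 (SE), limma adjusted p = 0.00827, from 0.070 and -0.16. Fdft1 passed in neither line but in the difference (log2 -0.18 ± 0.050 (SE), limma adjusted p = 0.0363). This call was lost in 2 of 11 alternative fits with all libraries and in most fits without 1 library. Over the latter the log2 difference of Fdft1 lay between -0.22 and -0.14. Fdft1 had values of 142 and 146 untreated and 162 and 154 treated in the GSK3α line. In the GSK3β line it had 143 and 136 untreated and 136 and 133 treated. Its exons overlap those of the cathepsin gene Ctsb on the opposite strand over 774 bases, and since the strand setting is not given in the sources used here, reads of the pair cannot be told apart. Ctsb rose in the GSK3β line (log2 0.18, limma adjusted p = 0.00343) and had log2 0.010, limma adjusted p = 0.95 in the GSK3α line. Hsd17b7, which rose in the GSK3α line, did not pass here (log2 -0.27 ± 0.085 (SE), limma adjusted p = 0.0636). The calls of Cyp51, Hmgcs1, Idi1 and Insig1 held without any single library, and without the first treated GSK3α library 5 of the 10 remained. For the other 6 the highest limma adjusted p without 1 library was between 0.0547 (Msmo1) and 0.264 (Tm7sf2).

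Across the 35 members the changes in the 2 lines, which come from separate libraries, had a Pearson r of -0.24 and a Spearman rho of -0.26, and 17 of 35 had the same sign (48.6%). Across all tested genes r was 0.080, rho 0.073 and 52.2% had the same sign. Within the fatty acid branch r was 0.55 and rho 0.60 over 9 genes, and within the sterol branch r was -0.36 and rho -0.10 over 18. These are descriptions across genes, which share libraries and scaling and are not independent replicates.

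**Figure D4:**
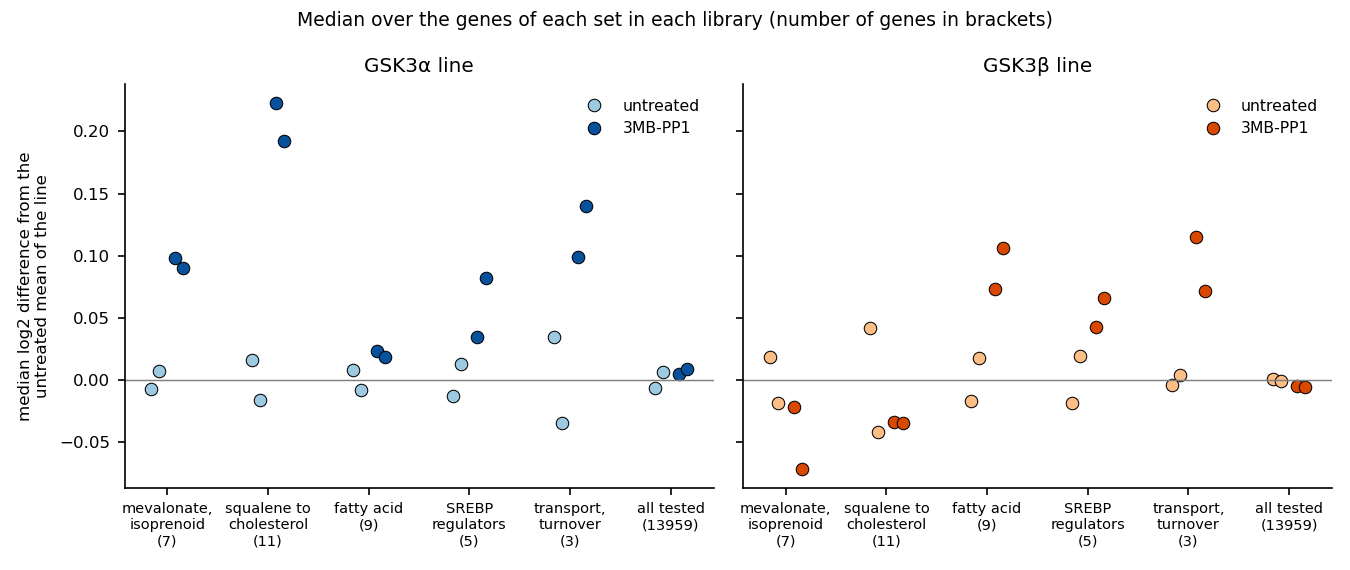
Median log2 difference from the untreated mean of the line over the genes of each role group and over all tested genes, in the GSK3α line (left) and the GSK3β line (right); each point is 1 library, light for untreated and dark for treated. In the GSK3α line the treated libraries stand highest in the squalene to cholesterol group.

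Among the SREBP regulators Insig1, itself a known SREBP target whose product retains SCAP, was the one that rose in the GSK3α line. Insig1 had values of 137 and 136 untreated and 165 and 159 treated in the GSK3α line, and 169 and 160.2 untreated and 151 and 158 treated in the GSK3β line. The untreated GSK3α libraries were the lowest, and the other 6 lay between 151 and 169. Its change was 19.0% in the GSK3α line (log2 0.25 ± 0.036 (SE), limma adjusted p = 0.00162) and -0.092 in log2 in the GSK3β line (limma adjusted p = 0.0942), where it passed without the second untreated GSK3β library (log2 -0.13, limma adjusted p = 0.0279).

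Insig2, the second INSIG gene, had lower values in the treated libraries of both lines. It had 18.0 and 18.5 untreated and 14.5 and 15.4 treated in the GSK3β line and fell there (log2 -0.27 ± 0.064 (SE), limma adjusted p = 0.00619), and 17.1 and 17.3 untreated and 16.3 and 16.4 treated in the GSK3α line (log2 -0.069, limma adjusted p = 0.732). The lines did not differ beyond the threshold in this response (log2 -0.21 ± 0.091 (SE), limma adjusted p = 0.198). Per kilobase of exon, the group means of Insig1 were 44.1 to 53.3 and those of Insig2 4.30 to 5.26.

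The mRNAs of the SREBP factors and of SCAP did not pass with the inhibitor in either line. Srebf2 had values of 213 and 216 untreated and 215 and 211 treated in the GSK3α line and 213 and 229 untreated and 228 and 231 treated in the GSK3β line. The treated and untreated libraries overlapped in both lines, and the log2 changes had 95% intervals of -0.081 to 0.063 and -0.017 to 0.13. Srebf1 had 71.7 and 74.0 untreated and 80.4 and 80.6 treated in the GSK3α line (log2 0.14 ± 0.036 (SE), limma adjusted p = 0.0732), with the untreated pair below all other libraries. In the GSK3β line Srebf1 was at 78.7 and 80.1 untreated and 82.4 and 83.3 treated (log2 0.060, limma adjusted p = 0.296). Scap, the escort of both factors, had 35.6 and 40.6 untreated and 39.0 and 40.3 treated in the GSK3α line (log2 0.059, limma adjusted p = 0.76) and 42.9 and 46.9 untreated and 48.4 and 51.8 treated in the GSK3β line (log2 0.16, limma adjusted p = 0.0846). Some fits gave calls here. In the GSK3β line Scap passed with the replicate block (limma adjusted p = 0.0456) and without the first or second untreated GSK3α or the second untreated GSK3β library (0.0423, 0.0433 and 0.0296). Without that last library Srebf2 passed too (log2 0.11, limma adjusted p = 0.042). In the GSK3α line Srebf1 passed without the first or second untreated GSK3β library (limma adjusted p = 0.0485 and 0.0489). Per kilobase of exon Srebf2 was at 29.9 to 31.9 and Srebf1 at 12.9 to 14.7 in the 4 groups.

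The 3 genes of sterol transport and turnover did not pass with the inhibitor in either line. Stard4, which carries cholesterol between membranes, had log2 changes of 0.12 in the GSK3α line and -0.0095 in the GSK3β line. Mylip, a ubiquitin ligase that limits lipoprotein uptake, was the lowest member, with 5.78 and 5.78 untreated and 6.91 and 6.70 treated in the GSK3α line and 5.32 and 5.35 untreated and 6.09 and 5.66 treated in the GSK3β line (log2 0.20, limma adjusted p = 0.4 and log2 0.12, limma adjusted p = 0.442). Abca1, the exporter of cholesterol, had log2 changes of 0.030 and 0.12 with the inhibitor.

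Between the untreated lines 19 of 35 members were higher and 3 lower in the GSK3β line, where 48.2% of all tested genes passed, 22.3% higher and 25.9% lower. At 22 of 35, the share of members was above that background, and the calls leaned to higher. The log2 difference was positive in 26 of 35 members (74.3%) and in 46.7% of all tested genes. Among 25 other tested genes of the same pathways the lean was weaker. There 9 were higher and 5 lower, and 52% had a positive difference, with a median log2 of 0.0089. By branch, 8 of 18 sterol genes were higher and 1 lower, 6 of 9 fatty acid genes higher and 2 lower, 3 of 5 regulators higher and 2 of 3 transport genes higher. When libraries were rescaled to equal sums, 58.9% of all called genes were higher in the GSK3β line in place of 46.3%. This comparison shares the untreated libraries with both responses and with their difference, so a low or high untreated pair enters all of them. The summed trophoblast markers were at 62.5 to 64.3 in the untreated GSK3α and 42.9 to 49.4 in the untreated GSK3β line, with Tfap2c lower (-0.79) and Gata3 higher (0.87) among 6 tested. The summed fibroblast markers were at 11.3 to 11.6 and 14.03 to 16.1, with Thy1 higher (0.54) among 3 tested. Their part in these counts was not tested.

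Abca1 stood far apart, with 6.00 and 5.61 in the untreated GSK3α line and 14.9 and 14.6 in the untreated GSK3β line (log2 1.21 ± 0.079 (SE), limma adjusted p = 4.62e-10). The treated libraries kept this distance, at 5.88 and 6.01 in the GSK3α and 16.1 and 16.1 in the GSK3β line. Fads1, of the desaturase pair, was at 50.8 and 54.2 in the GSK3α and 71.6 and 72.7 in the GSK3β line (log2 0.45 ± 0.041 (SE), limma adjusted p = 5.01e-08). Fads2, its partner, was at 31.3 and 32.2 against 39.1 and 43.2 (log2 0.36 ± 0.052 (SE), limma adjusted p = 1.37e-05). With the inhibitor Fads1 was at 53.0 and 54.7 in the GSK3α and 73.4 and 72.3 in the GSK3β line and Fads2 at 31.0 and 31.8 against 42.9 and 41.4, so no library of one line reached those of the other. Cyp51 followed, 28.0% higher in the untreated GSK3β line (log2 0.35 ± 0.039 (SE), limma adjusted p = 6.75e-07).

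The 3 members lower in the untreated GSK3β line were Scd2, Hmgcs1 and Elovl6. Scd2 differed by -20.5% (log2 -0.33 ± 0.028 (SE), limma adjusted p = 1.75e-08) and Hmgcs1 by -11.8% (log2 -0.18 ± 0.030 (SE), limma adjusted p = 6.98e-05), and in neither did the untreated libraries of the lines overlap. Elovl6 had 271 and 266 in the GSK3α line, where the treated libraries were at 258 and 269, against 253 and 254 in the GSK3β line (log2 -0.082 ± 0.031 (SE), limma adjusted p = 0.0354). This call was lost in 6 of the 12 alternative fits that left out no single library, and in some that did. Per kilobase of exon, Scd2 had group means of 138 to 180 and Scd1 of 42.5 to 48.4. Insig1 and Fasn were higher by 20.8% and 17.3% in the untreated GSK3β line (log2 0.27, limma adjusted p = 5.31e-06 and log2 0.23, limma adjusted p = 4.96e-06).

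Set side by side, the 8 libraries show a pair of patterns in the GSK3α line. For Hmgcs1, Idi1, Fdft1, Lss, Tm7sf2, Msmo1, Nsdhl and Dhcr7 of the sterol branch, and for Scd2 and Mylip, the treated GSK3α libraries were above all 6 others, in 10 of 35 members against 9.91% of tested genes. For Mvk, Mvd, Cyp51, Hsd17b7, Sc5d, Insig1, Srebf1, Acly, Fasn and Stard4 the untreated GSK3α libraries were below all 6 others, again 10 of 35 against 8.18%. In the first kind the treated GSK3α line exceeded every other condition, as with Msmo1. In the second the treated GSK3α line came closer to the level of the GSK3β line in Cyp51 and Insig1. Such an order is not by itself a response. Of the first kind only Hmgcs1, Lss, Msmo1 and Dhcr7 passed with the inhibitor in the GSK3α line. Of the second only Cyp51, Hsd17b7 and Insig1 did. Mvk, Acly and Fasn changed there by log2 0.046, 0.049 and 0.021. In these genes the untreated GSK3β line was above the untreated GSK3α line by log2 0.21, 0.18 and 0.23.

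Of 25 other tested genes of the same pathways, 1 rose in the GSK3α line and none fell, where 0.881% of all tested genes passed. It was Aacs, a ligase of acetoacetate (log2 0.20 ± 0.043 (SE), limma adjusted p = 0.0311), which had log2 -0.0033, limma adjusted p = 0.972 in the GSK3β line. In the GSK3β line 3 of the 25 rose and 1 fell, a share near the 14.9% of all tested genes that passed there. The rises were in Npc1 and Npc2, which move cholesterol out of lysosomes (log2 0.27, limma adjusted p = 0.00605 and log2 0.17, limma adjusted p = 0.00492), and in Mbtps2, a protease that cleaves SREBP (log2 0.15, limma adjusted p = 0.031). The fall was in Acsl4, an acyl-CoA synthetase (log2 -0.21, limma adjusted p = 0.00373). In the difference between the lines Rdh11, a retinol dehydrogenase, passed and was lower in the GSK3β line (log2 -0.31, limma adjusted p = 0.0135), and the other 24 did not pass, where 6.53% of all tested genes did.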

How the data were processed

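RNA was measured in 8 libraries, 2 in each of 4 groups. Per the submitters' processing notes the authors used TopHat2 and Partek with mm10; versions, gene annotation, strand setting and filters are not given in the sources used here. The deposited values are a signal: estimated gene counts that the authors scaled so that the third quartile was equal, neither raw counts nor per length. No column lacked a sample (0 unmapped). Genes with values in all libraries and a mean of at least 1 were tested (13959, with 3529 below that mean) on log2(value + 1), which understates changes of low genes, with limma-trend (limma 3.58.1, R 4.3.3, data.table version 1.17.8). The fit had 1 mean per group and 4 residual degrees of freedom. The 4 comparisons were two-sided, with Benjamini-Hochberg adjustment over all tested genes, a threshold of 0.05 and 95% intervals. The median SE was 0.0634 within a line and 0.0897 for the difference, and the script was tested on simulated data.

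The members, their roles and all other lists were chosen with earlier results of these data known. Full values were given for members past the threshold with the inhibitor or in the difference, for the SREBP regulators, and for up to 4 of the largest rises and falls between the untreated lines. Other pathway genes were named where they passed with the inhibitor or in the difference; some genes of these pathways are not reported here. Printed promoters were those of the 4 passing GSK3α members with the smallest adjusted p and an entry, plus Srebf1 and Srebf2. Exon lengths and overlaps came from GENCODE M21. Python 3.11.15, pandas 2.3.3 and matplotlib 3.10.9 were used. Alternatives were other pseudocounts, filters and scalings, limma-voom, robust empirical Bayes, only the libraries of a comparison, the replicate number as a block and leaving out each library.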

Additional observations from a re-analysis of the deposited data

Results flagged for a closer look

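Of the 35 members, 10 responded to the inhibitor differently in the 2 lines by the test of the difference itself, given as the log2 change in the GSK3β line minus that in the GSK3α line. In the mevalonate and isoprenoid segment these were Acat2 (-0.23, limma adjusted p = 0.00827), Hmgcs1 (-0.25, limma adjusted p = 0.00117) and Idi1 (-0.29, limma adjusted p = 0.00269). From squalene to cholesterol they were Fdft1 (-0.18, limma adjusted p = 0.0363), Lss (-0.24, limma adjusted p = 0.00932), Cyp51 (-0.36, limma adjusted p = 0.000516), Tm7sf2 (-0.51, limma adjusted p = 0.0474), Msmo1 (-0.32, limma adjusted p = 0.00984) and Dhcr7 (-0.35, limma adjusted p = 0.00823). Among the SREBP regulators it was Insig1 (-0.34, limma adjusted p = 0.000312). The calls of Fdft1 and Tm7sf2 were lost in some alternative fits with all libraries and in most fits without 1 library. With 2 libraries a group, no test for a single outlying library was made.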

How the results depend on the processing

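With 2 libraries a group the calls rest on single libraries. Leaving out each library in turn, the number of members called was between 1 and 11 in the GSK3α line (7 with all libraries), 2 and 13 in the GSK3β line (7), 5 and 11 in the difference (10) and 15 and 22 between the untreated lines (22). In the GSK3α line 2 calls remained without the second untreated or the second treated GSK3α library and 1, Cyp51, without the first treated one, and 11 were made without either untreated GSK3β library. In the GSK3β line 2 remained without its first treated and 13 were made without its second untreated library. The difference kept 5 without the first treated GSK3α library. Over all tested genes the counts without 1 library were 16 to 186 in the GSK3α line (123), 864 to 2277 in the GSK3β line (2084) and 353 to 1339 in the difference (911).

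Outside these, the count moved past 1.5 times only in the GSK3β line with libraries rescaled by the median of ratios, to 11 members (8 higher and 3 lower), and the cause was not tested. That rescaling took the share of higher calls among all genes in the difference from 55.5% to 65.6%, and equal sums took that between the untreated lines from 46.3% to 58.9% (59.4% with limma-voom). Small changes turned sign: Scap in the GSK3α line was -0.034 without its first and 0.15 without its second untreated library, and Srebf2 there was 0.00073 with quantile normalization, and between -0.022 and 0.0046 over the fits without 1 library (0.0043 without the second untreated). No member called with the inhibitor or in the difference, and none of the 7 named between the untreated lines, changed direction in any alternative run. Same-numbered libraries did not deviate together (correlations of -0.045 to 0.027). This shows no large shared shift, but it cannot show whether the numbers pair the libraries, which the labels do not say. With the replicate block 7, 9, 8 and 21 members were called in the 4 comparisons in the order above.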
